A study of Mus musculus with 23 samples.

Results

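A set of 10 genes of the amino acid and integrated stress response were followed across the cell types of mouse brain after a dose of an antibody that binds CD98hc. They are Atf4, Atf5, Atf3, Ddit3, Phgdh, Psat1, Asns, Chac1, Trib3 and Sesn2, chosen by symbol, and they are 10 of the 32285 genes in the deposited matrix. CD98hc (gene Slc3a2) is the heavy chain that holds amino acid carriers, among them LAT1 (gene Slc7a5), at the cell surface, so the comparison asks whether binding of it goes with a transcriptional sign of amino acid shortage.

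The study sorted brain cells by how much antibody they carried and profiled them by droplet single-cell RNA sequencing, in which each molecule of RNA is counted once through its unique molecular identifier (UMI). ATV-CD98hc, monovalent for CD98hc, was given to CD98hc mu/hu KI mice. ATV-TfR, which binds the transferrin receptor (gene Tfrc), was given to TfR mu/hu KI mice, and the control IgG was given to C57BL/6 mice. All 3 antibodies carried the LALAPG change in their Fc part and the dye Alexa647, and all were given intravenously at 45 mg/kg, 24 h before the brain was taken from mice aged 12 weeks in the series' design text and 3.3 months in the labels. The olfactory bulbs, cerebellum, pons and medulla were left out, and the tissue was dissociated with actinomycin D and anisomycin, inhibitors of transcription and translation. Live cells were sorted into a negative, a low, a medium and a high bin of antibody signal, with the gates set on tertiles of the positive ATV-TfR cells and used for every treatment. Each library held the cells of 1 bin from a pool of 1 male and 1 female mouse, with 2 pools per treatment. This gave 23 libraries in 12 groups, 11 of them with 2 libraries, since the control IgG negative bin has replicate 2 alone. Treatment and knock-in genotype coincide, so a difference between treatments and a difference between genotypes cannot be told apart.

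The integrated stress response starts with kinases that phosphorylate the translation factor eIF2, one of which, GCN2, senses uncharged tRNA when amino acids are short. General translation then falls while the transcription factor ATF4 is made, and ATF4 raises genes of amino acid synthesis and import, and other transcription factors. Because part of ATF4's control is at translation, its messenger RNA need not move with its activity, and the levels of its target genes are commonly read in its place. ATF4 binds, with partners of the C/EBP family, a composite element commonly written TGATGNAA.

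The element was searched in the promoters of the 10 members, and the matching sites are shown because these are the members in which the letters of an ATF4 element lie close to the start of transcription. Windows of 300 bases, from 250 before to 50 after the start, came from RefSeq (GRCm38.p6), 12 windows for the 10 members, and TGATGNAA was sought on both strands, where the other strand reads TTNCATCA. It was present in 4 of 10 members, against 3.97% of all 32851 windows and 4.51% of 27025 genes. Each site is given with its flanks, 5′ to 3′ on the strand of the gene, with the matching letters in capitals.
Atf3, chr1:191183425-191183454, minus strand: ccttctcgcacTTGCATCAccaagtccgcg
Asns, chr6:7693214-7693243, minus strand: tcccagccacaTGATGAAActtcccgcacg
Chac1, chr2:119351038-119351067, plus strand: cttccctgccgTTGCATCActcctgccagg
Trib3, chr2:152344028-152344057, minus strand: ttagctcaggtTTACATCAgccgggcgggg
The match in Asns lay from -23 to -16 of the start on the gene's own strand. Those in Atf3 (-110 to -103), Chac1 (-193 to -186) and Trib3 (15 to 22 after the start) were on the opposite strand. No match was found in the windows of Atf4, Atf5, Ddit3, Phgdh, Psat1 and Sesn2, which says only that these letters are not in these windows.

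The libraries held 1861238 to 90307818 UMIs each, and 519 to 19342 cells per library were kept, with a median of 2178 to 4873 UMIs per cell. Of 241978 distinct barcode sequences, 7598 occurred in more than 1 library. Clusters of cells were named from marker genes into 11 classes, the largest of which were endothelial-like (97648 cells, 12 of 12 markers in its clusters) and astrocyte-like (92051 cells). The pericyte-like cluster had 8 of 8 pericyte markers and also 9 of 12 endothelial markers. UMIs of a gene were summed per class and library and are given as CPM, counts scaled to the same total number of UMIs in each class and library. CPM values were compared between classes and conditions within a gene and not between genes. A gene was called where edgeR's adjusted p was below 0.05 over all genes of a class. Where a pair of values stands in parentheses, the first is the log2 difference and the second that adjusted p.

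**Figure D1:**
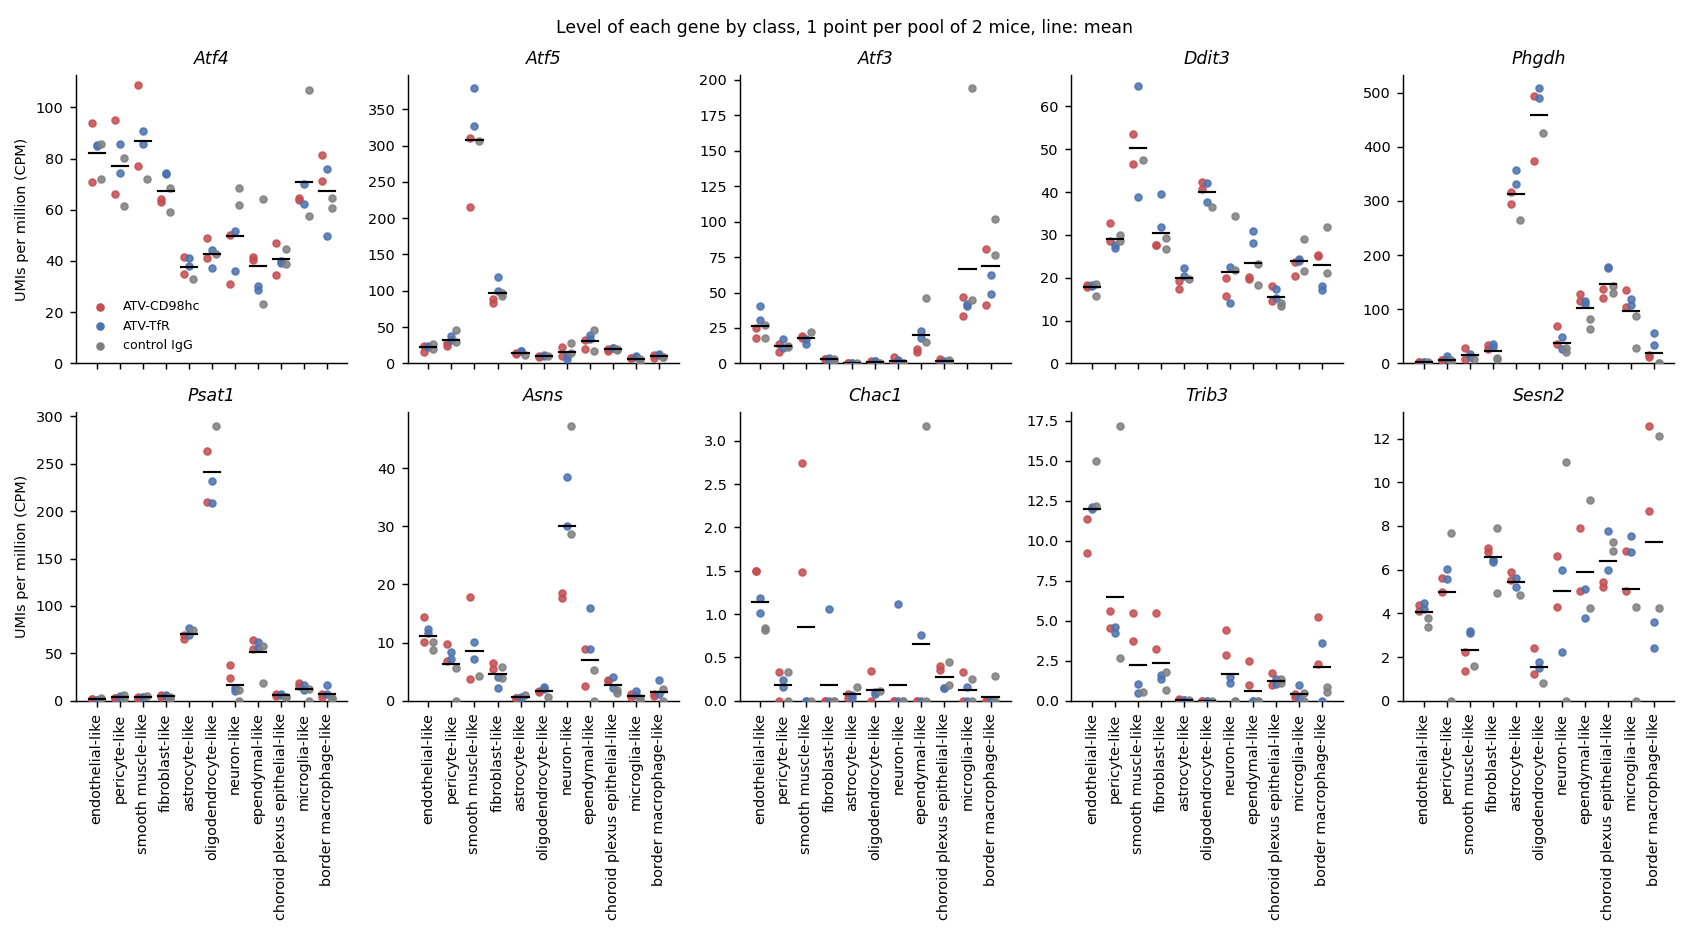
Level of each of the 10 members (vertical axis, CPM) in the 11 classes of cells (horizontal axis), with 1 point per pool over all bins and a line at the mean of the pools. Atf5 is highest in smooth muscle-like cells, Phgdh and Psat1 in oligodendrocyte-like and then astrocyte-like cells, and Trib3 in endothelial-like cells.

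Among the transcription factors, Atf4 (chromosome 15, 80255184 to 80257541, plus strand, GRCm38) was found in every class at levels within a narrow range. It was 86.7 ± 14 CPM (mean ± SD over 5 or 6 pools, as for the other levels by class) in smooth muscle-like cells, 82.1 ± 8.9 in endothelial-like cells and 77.2 ± 12 in pericyte-like cells, which overlapped, and it was lowest in astrocyte-like cells (37.7 ± 3.9). With scaling factors estimated over classes and pools, endothelial-like cells came first. Atf5 (chromosome 7, 44812256 to 44816658, minus strand), a relative of ATF4 that is also controlled at translation, reached 308 ± 59 CPM in smooth muscle-like cells and 96.6 ± 12 in fibroblast-like cells, and every pool of the first lay above every pool of the second. It was 22.2 ± 3.8 in endothelial-like and 14.2 ± 2.2 in astrocyte-like cells. Atf3 (chromosome 1, 191170296 to 191218039, minus strand), an immediate early gene as well as a stress gene, was highest in border macrophage-like (68.7 ± 22) and microglia-like cells (66.9 ± 62, from 33.6 to 194), and the order of these 2 classes switched when doublets were kept and when single pools were left out. It was 26.5 ± 8.4 in endothelial-like cells and 0.289 ± 0.16 in astrocyte-like cells. Ddit3 (chromosome 10, 127290774 to 127296288, plus strand), which encodes CHOP, a factor of prolonged stress, ranged from 50.3 ± 9.7 in smooth muscle-like cells and 39.9 ± 2.7 in oligodendrocyte-like cells to 17.8 ± 1.1 in endothelial-like and 15.5 ± 1.9 in choroid plexus-like cells.

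The enzymes differed between the cell types as well. Phgdh (chromosome 3, 98313170 to 98339990, minus strand), which takes the first step of serine synthesis from glucose, was 458 ± 57 CPM in oligodendrocyte-like and 312 ± 35 in astrocyte-like cells, with no overlap of pools between them or with the next class, and 2.46 ± 0.78 in endothelial-like cells. Psat1 (chromosome 19, 15904678 to 15947337, minus strand), the next enzyme of that pathway, was 241 ± 35 in oligodendrocyte-like, 70.9 ± 4.4 in astrocyte-like and 1.56 ± 0.53 in endothelial-like cells. Over the 11 classes the genes whose levels followed Phgdh most closely were Abcb8, Trp53bp2 and Sec14l2 (Pearson's r 0.933, 0.930 and 0.926). Those for Psat1 were Cmtm5, Gpr37 and Ints4 (0.978, 0.973 and 0.972), all as descriptions over classes that share libraries. Asns (chromosome 6, 7675169 to 7693254, minus strand), asparagine synthetase, was highest in neuron-like cells (30.1 ± 11) and next in endothelial-like cells (11.2 ± 2), with every neuron-like pool above every endothelial-like pool, and it was 0.603 ± 0.2 in astrocyte-like cells. The 1 neuron-like cluster, of 722 cells, had 6 of 7 neuron markers and also 4 of 6 markers of oligodendrocyte precursors.

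The last 3 members act downstream as brakes and regulators. Trib3 (chromosome 2, 152337422 to 152344032, minus strand), a pseudokinase that restrains ATF4 and AKT, was 12 ± 1.9 CPM in endothelial-like cells, 6.48 ± 5.3 in pericyte-like cells and 0.046 ± 0.04 in astrocyte-like cells, and 4246 of its 4623 UMIs were in endothelial-like cells. The pericyte-like level differed between bins in which endothelial markers differed too, as given further on. Chac1 (chromosome 2, 119351229 to 119354381, plus strand), which degrades glutathione, was the rarest member, with 496 of its 620 UMIs in endothelial-like cells (1.14 ± 0.3 CPM). Its level in smooth muscle-like cells (0.846 ± 1.2) rested on 4 UMIs, and that class came first when each class was reduced to its largest cluster. Sesn2 (chromosome 4, 132492032 to 132510501, minus strand), a leucine sensor that restrains mTORC1, ranged from 1.54 ± 0.59 in oligodendrocyte-like to 7.28 ± 4.5 in border macrophage-like cells, was 4.06 ± 0.41 in endothelial-like cells, and which class came first depended on the scaling and on single pools.

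In endothelial-like cells, where the brain meets the injected antibody, no member differed by the test between high and negative bins, between the high bins of the ATVs, or between an ATV and control IgG over all bins. Calls in the low and medium bins, of Phgdh and Psat1, are given further on. The CD98hc receptor itself did differ between the high bins of the ATVs. Against control IgG over all bins 0 of 16683 genes passed with either ATV, so Slc3a2 was not called there either. Those tests therefore cannot show that the members were unchanged. Slc3a2 was 253 and 362 CPM in the high libraries of ATV-CD98hc (replicates 1 and 2), 633 and 664 in those of ATV-TfR, and 602 and 531 in the low libraries of control IgG. The high ATV-CD98hc libraries thus lay below those of both other treatments, and the difference between the high bins was -1.06 on the log2 scale (95% interval -1.49 to -0.63, edgeR adjusted p = 0.0377). Slc7a5, its carrier partner, was 1171 and 1186 CPM with ATV-CD98hc and 934 and 1056 with ATV-TfR (0.26, -0.20 to 0.72), which did not pass the test. In the negative bins, where the libraries of the ATVs held 50 to 85 endothelial-like cells, Slc3a2 was 69.6 and 143 CPM against 301 and 345 (-1.69, -2.31 to -1.08), which did not pass over all genes (edgeR adjusted p = 0.122). Astrocyte-like cells of the negative bins also had less Slc3a2 with ATV-CD98hc than with ATV-TfR (-1.10, edgeR adjusted p = 1.7e-05). It was -0.95 there against the 1 control IgG library. In smooth muscle-like cells the negative bins of the ATVs differed by -0.97 (0.0513). Treatment and genotype coincide, so the knock-in and the antibody cannot be told apart in these values.

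Atf4 was 73.3 and 95.5 CPM in the high libraries of ATV-CD98hc, 85.5 and 85.2 in those of ATV-TfR, and 85.1 and 76.3 in the low libraries of control IgG. Control IgG is given by its low libraries because its high ones held 10 and 14 endothelial-like cells, so its bin is not matched to those of the ATVs. The libraries of ATV-CD98hc lay on both sides of those of ATV-TfR and control IgG. The 4 members with an ATF4-like site were then compared one by one. Asns was 10.3 and 14.6 CPM with ATV-CD98hc, 12.3 and 12 with ATV-TfR, and 8.87 and 8.45 with control IgG, so that both ATVs lay above the control and overlapped each other. Chac1 was 1.46 and 1.6 CPM with ATV-CD98hc (60 and 76 UMIs), 1.22 and 0.953 with ATV-TfR (76 and 62 UMIs), and 0.866 and 0.623 with control IgG (4 and 7 UMIs), an order without overlap between the 3 treatments. Trib3 went the other way, with 9.08 and 11.7 CPM for ATV-CD98hc, 12 and 12.1 for ATV-TfR, and 14.9 and 12.5 for control IgG. The groups sat in different clusters. Cluster 1 held 75.9% and 57.8% of the low control IgG cells, 32.5% and 46.2% of the high ATV-CD98hc cells and 37.4% and 40.0% of the high ATV-TfR cells, and Trib3 was 14 CPM in cluster 1 and 9.19 to 10.8 in the other 3 clusters. Chac1 was lowest in cluster 1, at 0.827 CPM, and 0.98 to 2.19 in the others. The part of the clusters in these orders was not tested.

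Atf3 was 17.4 and 24.9 CPM in the high libraries of ATV-CD98hc, 41.4 and 31.2 in those of ATV-TfR, and 17.7 and 26.1 in the low libraries of control IgG. Here ATV-TfR stood above both other treatments, which overlapped. Ddit3 was nearly level, at 17.4 and 17.3 CPM with ATV-CD98hc, 18.3 and 17.7 with ATV-TfR, and 15.6 and 18.1 with control IgG. Atf5 was 18.8 and 27 against 23.5 and 25 CPM, and Sesn2 4.61 and 3.82 against 4.28 and 4.52 CPM, ATV-CD98hc first, and both overlapped.

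Between the high bins of the ATVs, 0 of 10 members passed edgeR's test (1 at an unadjusted p under 0.05, 0 by DESeq2), where 0.0919% of all 15235 genes tested did. The median of the members was -0.04, and that of all genes 0.04. The intervals come from libraries fitted as separate samples, so that they count the same mice more than once. The log2 difference (ATV-CD98hc minus ATV-TfR) was 0.00 for Atf4 (95% interval -0.37 to 0.38), -0.04 for Ddit3 (-0.42 to 0.35), 0.06 for Asns (-0.38 to 0.50), -0.20 for Trib3 (-0.62 to 0.23) and -0.05 for Sesn2 (-0.55 to 0.45). It was 0.51 for Chac1 (-0.26 to 1.28), -0.06 for Atf5 (-0.53 to 0.41), -0.24 for Phgdh (SE 0.37) and 0.20 for Psat1 (-0.62 to 1.03).

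Atf3 was the member with the largest difference between the high bins, at -0.75 (-1.30 to -0.21, edgeR adjusted p = 0.945). It passed with no filter on low counts (-0.84, 0.00738). With the pool as a block it was -0.77 (edgeR adjusted p = 1.66e-08). The ATVs were given to different animals, so between treatments a block takes out the spread between pools, which is the error of that contrast, and such a p describes these 4 pools and not the treatments. Without ATV-CD98hc replicate 2 the difference was -1.19 for Atf3, -0.51 for Atf5 and -0.55 for Trib3. With a pool left out, an arm has 1 library, which is assumed to vary like the other groups, here and in all such values. The pools of ATV-CD98hc differed in make-up, since cluster 4 held 49.3% and 41.9% of the endothelial-like cells in the medium and high libraries of its replicate 1. That share was 12.5% to 17.1% in the same bins of its replicate 2 and in the high libraries of ATV-TfR. The mean level of Atf3 was 24.6 CPM in cluster 4 and 26.3 to 27.1 in the other 3 endothelial-like clusters, and that of Trib3 was 9.71 in cluster 4 and 9.19 to 14 in the others. Atf5 was lowest in cluster 4, at 17.0 CPM against 21.1 to 31.9 in the others.

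Against control IgG, pools were compared over all their bins, which for control IgG come mostly from the low and negative libraries and for the ATVs mostly from the medium and high ones. The control pools held different bins. Replicate 1 had 1039 low endothelial-like cells and no negative library, and replicate 2 had 2174 low and 2499 negative cells. With ATV-CD98hc, 0 of 10 members passed edgeR's test (1 at an unadjusted p under 0.05, 0 by DESeq2), as did 0 of 16683 genes. Chac1, at 1.49 and 1.49 CPM in the pools of ATV-CD98hc and 0.845 and 0.818 in those of control IgG, had the largest difference, 0.91 on the log2 scale (0.13 to 1.68, edgeR adjusted p = 0.996). Asns, at 10.1 and 14.3 against 8.66 and 10.1 CPM, differed by 0.41 (-0.13 to 0.94), with its pools touching. Trib3 differed by -0.33 (-0.82 to 0.15), Atf4 by 0.10 (-0.40 to 0.60), Ddit3 by 0.10 (-0.23 to 0.43), Sesn2 by 0.27 (-0.23 to 0.76) and Atf3 by -0.07 (-0.64 to 0.51).

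The pools of ATV-TfR were compared with the same control pools, so that these comparisons share them. Here 0 of 10 members and 0 of 16683 genes passed edgeR's test (1 member at an unadjusted p under 0.05, 0 by DESeq2). Asns differed by 0.42 (-0.12 to 0.95), Chac1 by 0.51 (-0.28 to 1.30) and Atf3 by 0.70 (0.13 to 1.28, edgeR adjusted p = 0.597). Between the pools of the ATVs, 0 of 10 members and 0 genes passed (1 member at an unadjusted p under 0.05, 0 by DESeq2), with Atf3 at -0.77 (-1.32 to -0.22, edgeR adjusted p = 0.961) and Chac1 at 0.40 (-0.19 to 0.98).

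**Figure D2:**
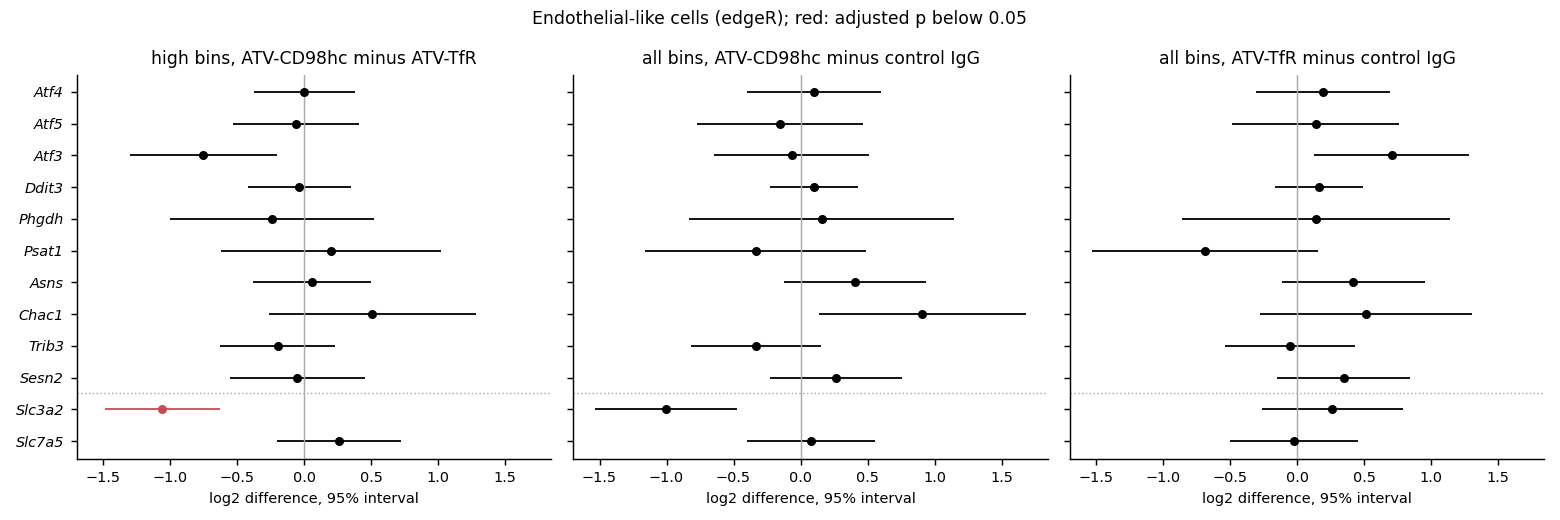
Log2 differences with 95% intervals (horizontal axes) for the 10 members and for Slc3a2 and Slc7a5 in endothelial-like cells, between the high bins of the ATVs and between each ATV and control IgG over all bins. Slc3a2 in the first panel, at -1.06, is the one value with an adjusted p below 0.05 and is drawn in red.

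From negative to high antibody signal the bins of an ATV came from the same pools, but the test took their libraries as unpaired. The negative endothelial-like libraries of the ATVs held 50 to 85 cells, of which 72% to 77% were in cluster 3. With ATV-CD98hc, 0 of 10 members passed edgeR's test (1 at an unadjusted p under 0.05, 0 by DESeq2), where 4.36% of 15235 genes did, and the median was -0.19 for the members and 0.21 for all genes. Trib3 had 0 and 1 UMI in the negative libraries, and its log2 difference of 2.26 (0.13 to 4.39, edgeR adjusted p = 0.291) rests on these. Asns was 1.53 (-0.21 to 3.27), Atf4 0.54 (-0.07 to 1.15) and Ddit3 -0.67 (-1.55 to 0.21). With ATV-TfR, 0 of 10 passed edgeR's test (1 at an unadjusted p under 0.05), where 6.85% of genes did, and DESeq2 called 1, Phgdh (-2.46, adjusted p = 0.0167), for which edgeR gave -2.31 (-4.33 to -0.29, adjusted p = 0.198). Neither the difference of these differences (0 of 10, with 0.0131% of genes called and 1 member, Ddit3, at an unadjusted p under 0.05) nor the negative bins of the ATVs (0 of 10, with 0 genes called and again Ddit3 alone at an unadjusted p under 0.05) held a member that passed edgeR's test, and DESeq2 called 0 in both.

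The other genes of the pathway in endothelial-like cells behaved as follows. Between the high bins of the ATVs, 1 of 8 amino acid carriers was lower with ATV-CD98hc, which was Slc3a2 itself. None of 12 aminoacyl-tRNA synthetases, 9 eIF2 kinases and phosphatase subunits, 11 other ATF4 target genes, 6 serine and one-carbon genes, 10 endoplasmic reticulum chaperones or 10 immediate early genes passed edgeR's test there. The medians of the 7 lists were -0.20 to 0.10, and that of all genes was 0.04. Against control IgG over all bins, 0 genes of any list passed. In the low bins, where 11.9% of genes were called, 4 of 8 carriers were higher and 3 lower with ATV-CD98hc than with control IgG, among the higher Slc7a11, the cystine carrier (2.69), and Slc6a9, a glycine carrier (2.61). There 2 of 11 other ATF4 target genes, among them Cth, an enzyme of cysteine synthesis (2.81), and 5 of 10 immediate early genes were higher as well. With ATV-TfR the low bins, where 12% of genes were called, also had 4 of 8 carriers higher and 3 lower than control IgG, 4 of 11 other ATF4 target genes higher, with Cth at 3.67 and Vldlr, a lipoprotein receptor, at 3.35, and 7 of 10 immediate early genes higher, with Nr4a1 at 3.53 and Fos at 2.97. Between the medium bins, where 5.76% of genes were called, 2 of 8 carriers were higher and 4 lower with ATV-CD98hc than with ATV-TfR, the lower ones including Slc7a11 (-1.79), Slc6a9 (-1.70) and Slc1a4, a neutral amino acid carrier (-1.29). There 2 of 10 immediate early genes were lower and 0 genes of the other lists were called. Astrocyte markers and cluster shares moved with all of these low and medium bins, as given next, and their part in the values of the lists was not tested. From negative to high, where 4.36% of genes were called with ATV-CD98hc and 6.85% with ATV-TfR, 3 of 8 carriers rose with each ATV, among them Slc7a5 (1.93 and 1.83, ATV-CD98hc first) and Slc3a2 (1.79 and 1.15). Cluster 3 held 72% to 77% of the negative and 17.0% to 26.7% of the high cells. Slc7a5 was 662 CPM in cluster 3 and 1003 to 1242 in the other endothelial-like clusters, and Slc3a2 was 384 and 467 to 531. Bins were sorted on bound antibody, and the part of the sort and of the clusters in these rises was not tested. None of the 12 synthetases or 10 chaperones passed with ATV-CD98hc, where 1 eIF2 gene and 1 other ATF4 target gene fell. The immediate early genes Egr1 (-3.01 and -2.68) and Nr4a1 (-2.27 and -2.65) fell with both. With ATV-TfR, the ATF4 target Nupr1 fell by 3.88 and Psph, the last enzyme of serine synthesis, rose by 2.09.

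Calls of members in endothelial-like cells did occur in the low and medium bins, where levels of astrocyte markers and the shares of clusters differed too. Cluster 3 held 53.9% and 48.1% of the low endothelial-like cells with ATV-CD98hc, 84.5% and 83.5% with ATV-TfR, and 7.51% and 5.98% with control IgG. In the low bins Phgdh was 11.2 and 18.3 CPM with ATV-CD98hc, 6.88 and 20.5 with ATV-TfR and 1.08 and 0.623 with control IgG. ATV-CD98hc was thus above control IgG by 4.20 (3.14 to 5.26, edgeR adjusted p = 1.32e-06) and ATV-TfR by 3.95 (edgeR adjusted p = 0.00026), or 3.04 (0.123) without ATV-TfR replicate 2. In the first of these comparisons 11.9% of genes were called and 2 of 10 members, the second being Psat1 (1.88, 0.0163). Psat1 did not pass without ATV-CD98hc replicate 2 (1.44, 0.163) or control IgG replicate 2 (0.97, 0.446), in the largest endothelial-like cluster (1.40, 0.411) or in cluster 3 alone (edgeR adjusted p = 0.214, a check added after seeing the data). In the second 12% of genes were called and 1 member. Between the medium bins of the ATVs 5.76% of genes and 1 member were called, Phgdh, at 1.95 and 3.64 CPM with ATV-CD98hc and 10.9 and 13.9 with ATV-TfR (-2.10, edgeR adjusted p = 0.000339). It was -1.88 (0.0614) without ATV-TfR replicate 2 and -1.87 (0.123) in the largest endothelial-like cluster. With the pool as a block 3 members were called, again a count for these 4 pools alone and without the share of all genes beside it.

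The summed level of the 12 astrocyte markers in endothelial-like cells was 850 and 1395 CPM in the low libraries of ATV-CD98hc, 921 and 1358 in those of ATV-TfR and 80.1 and 77.9 in those of control IgG, with 12 of 12 markers detected in each. It was 212 and 278 CPM in the medium libraries of ATV-CD98hc, 804 and 987 in those of ATV-TfR and 117 to 163 in the 4 high libraries. As a share of the level in astrocyte-like cells of the same library, the marker sum was 3.12% and 5.19% in the low ATV-CD98hc libraries, and Phgdh was 3.45% and 5.89%. In the medium ATV-TfR libraries these shares were 2.71% and 3.28% for the markers and 3.05% and 3.55% for Phgdh. The part of astrocyte RNA in these endothelial-like values of Phgdh and Psat1 was not tested.

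In astrocyte-like cells 9 members could be tested, since Trib3 was too rare. Most of these cells lay in the low bins of both ATVs (10448 and 13123 cells for ATV-CD98hc, 12771 and 15075 for ATV-TfR), and there no member was called. From negative to low, 0 of 9 passed edgeR's test with ATV-CD98hc (2.73% of 16051 genes called, 1 member at an unadjusted p under 0.05) and 0 of 9 with ATV-TfR (1.46% of genes, 0 members unadjusted). The difference of these differences gave 0 of 9 (1.58% of genes, 1 unadjusted), the low bins of the ATVs gave 0 of 9 (3.78% of genes, 2 unadjusted) and the negative bins 0 of 9 (0.785% of genes, 0 unadjusted), and DESeq2 called 0 in all 5. In the low bins Atf4 was 36.9 and 41.2 CPM with ATV-CD98hc and 37 and 41 with ATV-TfR (-0.00, -0.31 to 0.31). Phgdh was 326 and 311 against 305 and 331 CPM (-0.00, -0.35 to 0.34), and Ddit3 18.1 and 19.5 against 20 and 22.2 CPM (-0.17, -0.40 to 0.06). Slc3a2 in the same libraries was 165 and 137 against 303 and 298 CPM. Psat1 went from 78.4 and 90.6 CPM in the negative to 62.3 and 67.9 in the low libraries of ATV-CD98hc, by -0.34 (edgeR adjusted p = 0.12), and it passed with the pool as a block (-0.35, 0.0142). Without ATV-CD98hc replicate 2 the call there was Phgdh (0.49, 0.0098).

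**Figure D3:**
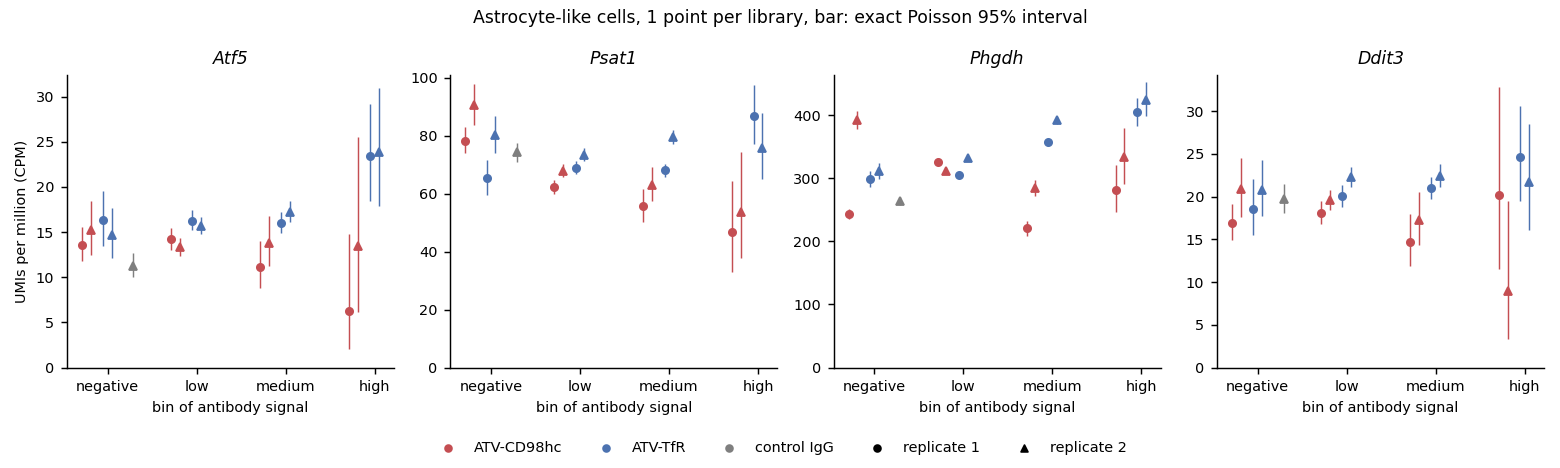
Levels of Atf5, Psat1, Phgdh and Ddit3 in astrocyte-like cells (vertical axes, CPM) by bin of antibody signal, with 1 point per library, colour for treatment, shape for replicate and bars for the exact Poisson 95% interval. In the high bins Atf5 and Psat1 of both ATV-CD98hc libraries lie below both ATV-TfR libraries, on 182 and 207 cells of ATV-CD98hc.

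At higher antibody signal the members that were called were lower with ATV-CD98hc than with ATV-TfR. In the high libraries Atf5 was 6.31 and 13.4 CPM with ATV-CD98hc (5 and 9 UMIs in 182 and 207 cells) and 23.4 and 23.8 with ATV-TfR, a difference of -1.45 (-2.12 to -0.77, edgeR adjusted p = 0.00458). Psat1 was 46.7 and 53.7 against 86.8 and 75.8 CPM, a difference of -0.86 (-1.29 to -0.43, edgeR adjusted p = 0.00775). These 2 of 9 members were called where 12.1% of genes were. Phgdh, at 281 and 333 against 404 and 425 CPM (-0.58), did not pass with edgeR's adjusted p of 0.0635, and the value with the pool as a block (-0.59, 0.0046) describes the 4 pools alone. Atf5 did not pass without ATV-CD98hc replicate 1 (-0.99, 0.175). Psat1 did not pass without either ATV-CD98hc pool (-0.79, 0.176 without replicate 1 and -0.97, 0.0633 without replicate 2) or ATV-TfR replicate 1 (-0.74, 0.0607).

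Between the medium bins, 4 of 9 members were lower with ATV-CD98hc, where 19.9% of genes were called and 11.1% were lower. Ddit3 was 14.7 and 17.3 CPM against 21 and 22.4 (-0.46, edgeR adjusted p = 0.0239). Phgdh was 220 and 284 against 357 and 392 CPM (-0.59, 0.0191), Atf5 11.2 and 13.8 against 16 and 17.2 CPM (-0.43, 0.029) and Psat1 55.7 and 63.2 against 68 and 79.6 CPM (-0.34, 0.0482). No ATV-CD98hc library of the 4 genes overlapped an ATV-TfR library. Leaving out ATV-TfR replicate 1 or 2 removed all 4 calls, with Phgdh at -0.67 (0.0937) and -0.52 (0.193), and leaving out ATV-CD98hc replicate 1 left 1, Phgdh . Psat1, nearest to the threshold, was also not called with other size factors (RLE) or by DESeq2. Over all bins of a pool, 1 of 9 members was called between the ATVs, Atf5 (-0.30, edgeR adjusted p = 0.0246, with 10.7% of genes called), and leaving out any 1 ATV pool ended that call (0.0599 to 0.085).

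Within each ATV, different members were called. From negative to high, Psat1 fell by 0.79 with ATV-CD98hc (edgeR adjusted p = 0.0141, 7.87% of genes called), from 78.4 and 90.6 CPM. Atf5 rose by 0.72 (0.00493) and Phgdh by 0.55 (0.0354) with ATV-TfR (17.5% of genes called). From negative to medium, Psat1 fell by 0.47 with ATV-CD98hc (0.0113, 15.7% of genes called), and 0 of 9 members passed edgeR's test with ATV-TfR (4.38% of genes, 1 unadjusted). The difference of high minus negative between the ATVs was -1.32 for Atf5 (-2.08 to -0.57, edgeR adjusted p = 0.0267) and -1.06 for Psat1 (-1.56 to -0.56, 0.00768), 2 of 9 members where 7.53% of genes were called. It was -0.64 for Phgdh (edgeR adjusted p = 0.164), which passed with the pool as a block. Without the block, each of these calls was lost when certain single pools were left out, which puts an arm at 1 library. The differences kept their direction.

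For Atf5 the difference of high minus negative did not pass edgeR's test without ATV-CD98hc replicate 1 (-0.96, adjusted p = 0.224), ATV-TfR replicate 1 (-1.39, 0.163) or ATV-TfR replicate 2 (-1.28, 0.16). For Psat1 it did not pass without ATV-CD98hc replicate 1 (-1.09, 0.0749) or 2 (-1.04, 0.115) or ATV-TfR replicate 1 (-0.78, 0.163). The fall of Psat1 from negative to high with ATV-CD98hc was -0.82 (0.186) and -0.77 (0.25) without its replicate 1 and 2, and that to medium -0.48 (0.0925) and -0.45 (0.164). With ATV-TfR, the rise without replicate 1 and 2 was 0.78 (0.186) and 0.67 (0.186) for Atf5 and 0.53 (0.377) and 0.59 (0.263) for Phgdh.

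The clusters of astrocyte-like cells moved with the bins and treatments. Cluster 0 held 64.8% and 51.2% of the astrocyte-like cells of the high ATV-CD98hc libraries and 35.6% and 32.8% of the high ATV-TfR libraries, and cluster 2 held 9.3% and 11.1% against 49.3% and 50.2%. In the medium libraries cluster 2 held 21.7% and 23.0% with ATV-CD98hc and 36.4% and 42.3% with ATV-TfR. Member levels differed between these clusters. In cluster 0 Psat1 was 45.6 ± 1.2 CPM (5 pools), Phgdh 238 ± 31 and Atf5 11.4 ± 2.1, and in cluster 2 they were 98.6 ± 3.8, 432 ± 45 and 18.1 ± 2.5, with all pools of cluster 2 above all pools of cluster 0 for Psat1 and Phgdh. Mean levels of these members were lowest in cluster 7 (27.4, 65.6 and 6.65) and highest in cluster 17 (185, 939 and 31.6). Both were shallow, with a median of 2047.5 and 1580 UMIs per cell, against 3758 in cluster 0 and 4956 in cluster 2. The summed level of the 12 astrocyte markers, all detected, was 26373 and 24679 CPM in the high ATV-CD98hc libraries and 35557 and 35894 in those of ATV-TfR. Within cluster 0 alone, 0 members were called between the high bins (Atf5 -0.45, edgeR adjusted p = 0.812, and Psat1 -0.31, 0.715), between the medium bins (Phgdh -0.36, 0.0645, and Psat1 0.06, 0.831) or in the difference of high minus negative (Atf5 0.27, 0.966, and Psat1 -0.31, 0.855). Within that cluster Psat1 with ATV-CD98hc was -0.12 (0.901) from negative to high and 0.10 (0.82) to medium, and Atf5 with ATV-TfR -0.08 (0.934) from negative to high, and none of these 3 was called. The rise of Phgdh from negative to high with ATV-TfR kept its call in that cluster.

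Other genes of the pathway in astrocyte-like cells also included more that were lower than higher with ATV-CD98hc in the medium bins. There 6 of 10 endoplasmic reticulum chaperones were lower (median -0.42), as were 3 of 11 other ATF4 target genes, 2 of 6 serine and one-carbon genes, 2 of 12 aminoacyl-tRNA synthetases and 1 of 9 eIF2 genes, and 0 were higher in these lists. Over all genes 11.1% were lower there, so that the counts of synthetases and eIF2 genes are near the background. Those of serine and one-carbon genes and of other ATF4 targets rest on lists of 6 and 11 genes, and no excess is read from them. The lists were not compared within single clusters, and the part of the cluster shares in these counts was not tested. The median of all genes was -0.00. Nupr1, a stress-induced chromatin protein, differed by -2.53 (edgeR adjusted p = 0.000361). Of 8 carriers, Slc7a1, for cationic amino acids, was higher (2.30), Slc7a5 was higher (0.94) and Slc3a2 was lower (-1.35). The 12 endothelial markers, all detected, summed to 551 and 990 CPM in these astrocyte-like libraries with ATV-CD98hc and 50.5 and 45.3 with ATV-TfR. Slc7a5 was 1009 ± 66 CPM in endothelial-like and 30.3 ± 4.3 in astrocyte-like cells, and the part of endothelial RNA in the carriers' values was not tested. In the high libraries that sum was 203 and 354 CPM with ATV-CD98hc and 945 and 594 with ATV-TfR. In the high bins, where 12.1% of all genes were called, 3 of 10 chaperones, 2 of 11 other ATF4 target genes, among them Eif4ebp1, an inhibitor of translation (-2.17), and 1 of 6 serine and one-carbon genes were lower, and 0 of 12 synthetases passed. Of the 8 carriers there, 2 were higher, among them Slc1a5, for neutral amino acids (1.91), and 1 was lower, Slc3a2 (-1.47), as was 1 immediate early gene, Jun (-1.13). In the low bins, where most astrocyte-like cells were and 3.78% of all genes were called, 2 of 10 chaperones were lower, Dnajb9 (-0.42) and Xbp1 (-0.37), and 0 genes passed among the synthetases, eIF2 genes, other ATF4 targets and serine and one-carbon genes. Over all bins, control IgG had 1 pool with enough of these cells, of which 5028 came from its negative library. The cells of the ATV pools came mostly from the low and medium libraries, so that the bins were not matched. Against that control pool the median of the chaperones was -0.07 with ATV-CD98hc and 0.16 with ATV-TfR. In the same order it was -0.17 and 0.07 for other ATF4 targets and -0.05 and 0.39 for serine and one-carbon genes.

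In the 9 other classes, 60 contrasts of a positive bin with the negative bin, and of matched bins of the ATVs, gave 407 tests of members. Of these, 24 were higher and 15 lower, or 9.58%, where 7.21% of all 693975 gene tests were called. The 39 calls became 18 without ATV-TfR replicate 1 and 22 without ATV-TfR replicate 2, so no excess over all genes is read from these shares. Phgdh made up 20 of the 39 calls (10 in each direction of 60 contrasts), Atf3 6, Psat1 5, Trib3 4, Atf5 3 and Atf4 1, and Asns, Ddit3 and Sesn2 had 0 in 46, 58 and 28 tests. Chac1 had no test in these contrasts.

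Comparisons with control IgG in these classes, 35 contrasts with 2 libraries or pools a group, gave 18 further calls in 229 tests of members, or 7.86%, where 6.5% of all 409106 gene tests were called. They were Phgdh 15 times, Psat1 2 times and Asns 1 time. Of the 18, 17 were higher with an ATV, and the lower one was Phgdh between the high bins of choroid plexus-like cells (ATV-CD98hc minus control IgG, -0.91, edgeR adjusted p = 0.0128), where 3.49% of genes were called. It was not called without ATV-CD98hc replicate 2 (-0.76, 0.0573), without control IgG replicate 1 (-0.55, 0.397) or 2 (-1.22, 0.0622), with at least 50 cells per library (-0.56, 0.336) or in the largest cluster (-0.56, 0.467). In border macrophage-like cells Phgdh was 15.7 and 11.4 CPM in the pools of ATV-CD98hc and 33.4 and 55.4 in those of ATV-TfR. Control IgG had 0 UMIs in both pools, where 3 UMIs would be 1.59 and 0.866 CPM, and the calls (11.8% and 11.9% of genes called, ATV-CD98hc first) held under every alternative run. The summed level of the astrocyte markers in these cells was 5164 to 5378 CPM in the low libraries of ATV-CD98hc, 6325 to 7378 in those of ATV-TfR and 10.3 to 17.2 in those of control IgG, and its part in the calls was not tested. Asns in the medium bin of choroid plexus-like cells was 2.87 and 4.98 CPM with ATV-TfR (5 and 10 UMIs) and 0.566 and 0.619 with control IgG (1 UMI each), a difference of 2.72 (edgeR adjusted p = 0.039, 20.5% of genes called). With ATV-CD98hc it was 3.44 and 3.49 CPM (12 and 7 UMIs), a difference of 2.52 that did not pass (0.059). DESeq2 did not call the first (adjusted p = 0.127), nor did edgeR without ATV-TfR replicate 2 (2.27, 0.311) or control IgG replicate 2 (2.78, 0.118).

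Pericyte-like cells had members that rose with both ATVs. From negative to high, Atf3 rose by 3.58 with ATV-CD98hc (20.4% of genes called) and by 3.27 with ATV-TfR (22.8% of genes). Atf3 was 12.9 and 15.6 CPM in the high (16 and 33 UMIs) and 0.992 and 1.58 in the negative ATV-CD98hc libraries, the latter on 1 UMI each, so that the size of that rise is uncertain. It was 26.8 and 14.2 against 1.45 and 3.43 in those of ATV-TfR (121 and 49 against 4 and 6 UMIs). The call did not hold without ATV-CD98hc replicate 1 (3.34, edgeR adjusted p = 0.0786) or, for ATV-TfR, without its replicate 1 (2.06, 0.1). Trib3 was 5.66 and 7.1 CPM in the high ATV-CD98hc libraries (7 and 15 UMIs), with 0 UMIs in both negative libraries, where 3 UMIs would be 2.98 and 4.75 CPM. It was 6.64 and 6.97 against 0.362 and 1.14 CPM with ATV-TfR (3.30, edgeR adjusted p = 0.000845, or 2.55 and 0.163 without ATV-TfR replicate 1). For ATV-CD98hc the fitted difference against libraries at 0 is no bound, and its edgeR adjusted p of 0.00469 became 0.127 and 0.0985 without replicate 1 and 2. Phgdh fell by 2.28 and 1.72, ATV-CD98hc first, with edgeR adjusted p of 0.0494 and 0.0204. The astrocyte markers in pericyte-like cells were lower in the same bins, at 3311 and 3336 CPM in the high and 6802 and 7601 in the negative libraries of ATV-CD98hc, and 3647 and 3855 against 6971 and 7173 with ATV-TfR. Without either ATV-CD98hc pool the first was not called (-2.19, 0.335 and -3.32, 0.291), and without ATV-TfR replicate 2 the second was -0.96 (0.455).

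The summed level of the 12 endothelial markers in pericyte-like cells, all detected, moved with the same bins. It was 60.9% and 56.9% of that in endothelial-like cells of the same library in the high ATV-CD98hc libraries, 55.1% and 55.1% in those of ATV-TfR, and 2.94% to 6.36% in the 4 negative ATV libraries. Trib3 in the high libraries was 62.3%, 60.8%, 55.3% and 57.7% of its endothelial-like level, in the same order. The part of endothelial RNA in these pericyte-like values was not tested, and neither the high bins of the ATVs nor their difference of high minus negative held a member called by edgeR (0 of 9 in each, 0 at an unadjusted p under 0.05, with 0 genes called).

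Choroid plexus-like cells had less Phgdh in the high than in the negative bin with both ATVs. It was 73.6 and 56.1 CPM in the high and 139 and 199 in the negative ATV-CD98hc libraries (-1.55, edgeR adjusted p = 5.42e-08, 30.3% of genes called). With ATV-TfR it was 64.1 and 68.6 against 160 and 163 CPM (-1.39, 3.33e-06, 23.4% of genes). With control IgG it was 147 and 98.1 against 197 CPM in its 1 negative library (-0.94, 0.00561, 9.24% of genes called), where that library is assumed to vary like the other groups. High and negative libraries did not overlap in any of the 3 treatments. Within the largest choroid plexus-like cluster the fall with ATV-CD98hc was -0.74 (0.0506). Astrocyte markers summed to 0.926% to 4.12% of their astrocyte-like level in the 8 ATV libraries of these bins, while Phgdh was 15.9% to 57.1% of its own. The endothelial markers in these cells moved with the same bins, from 51.1 and 73.6 CPM in the negative to 1981 and 2194 in the high libraries of ATV-CD98hc and from 90.3 and 90.8 to 1573 and 3346 with ATV-TfR. With control IgG they were 516 in the negative and 102 and 131 in the high libraries. The part of endothelial RNA in the fall of Phgdh was not tested. Between the medium bins Phgdh was 116 and 98.2 CPM with ATV-CD98hc, 172 and 201 with ATV-TfR and 89.4 and 108 with control IgG. ATV-CD98hc was thus lower than ATV-TfR there (-0.80, -1.13 to -0.48, edgeR adjusted p = 0.000517, 8.98% of genes called), and the call held under every alternative run. In these choroid plexus-like libraries astrocyte markers summed to 482 and 518 CPM with ATV-CD98hc against 2117 and 2157 with ATV-TfR, and endothelial markers to 1640 and 5670 against 294 and 321, and the part of either was not tested.

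Oligodendrocyte-like cells, which hold the most Psat1, had less of it in the low bin of ATV-CD98hc and the medium bin of ATV-TfR than in the negative bins. With ATV-CD98hc it was 282 and 236 CPM in the negative and 167 and 166 in the low libraries (-0.79, edgeR adjusted p = 0.00258, 16.8% of genes called). With ATV-TfR it was 223 and 255 in the negative and 102 and 119 in the medium libraries (-1.18, 3.84e-05, 21.2% of genes called). Neither pair of groups overlapped, and both calls held under every alternative run. The other positive bins did not pass, with ATV-CD98hc medium minus negative at -0.41 (0.236) and ATV-TfR low minus negative at -0.33 (0.29). Between the medium bins Psat1 was higher with ATV-CD98hc, at 247 and 166 against 102 and 119 CPM (0.88, edgeR adjusted p = 0.00852, 7.46% of genes called), or 0.54 (0.311) without ATV-CD98hc replicate 1 and 0.78 (0.146) without ATV-TfR replicate 1. Phgdh fell as well in the medium bins, by 0.72 with ATV-CD98hc (7.27% of genes called) and by 0.61 with ATV-TfR, and DESeq2 called neither (adjusted p = 0.0762 and 0.0744). Without ATV-CD98hc replicate 1 the first was -0.57 (0.139), and without ATV-TfR replicate 1 or 2 the second was -0.55 (0.384) or -0.66 (0.269). The summed astrocyte markers in these cells, all detected, went from 3.13% and 3.46% of their astrocyte-like level in the negative to 20.3% and 22.9% in the low ATV-CD98hc libraries, and from 2.97% and 4.09% to 15.9% and 16.3% in the medium ATV-TfR libraries. Astrocyte-like cells have less Psat1 than oligodendrocyte-like cells, and the part of their RNA in this fall was not tested.

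Atf4 itself was called once. In ependymal-like cells it was 81.8 and 70.4 CPM in the medium and 17.4 and 27 in the negative ATV-CD98hc libraries, on 23 and 15 against 4 and 5 UMIs (1.78, edgeR adjusted p = 0.0312, 5.41% of genes called). DESeq2 did not call it (1.76, adjusted p = 0.398), nor did edgeR without ATV-CD98hc replicate 1 (1.31, 0.426) or 2 (2.20, 0.166). Phgdh rose in the same comparison, from 21.8 and 75.7 to 135 and 122 CPM (1.46, or 0.63 and edgeR adjusted p = 0.609 without ATV-CD98hc replicate 1), and in the medium bin of ATV-TfR, from 30.4 and 45.1 to 274 and 212 CPM (2.63, 2.63e-07, 19.4% of genes called). Astrocyte markers, all detected, went from 12.3% to 13.8% of their astrocyte-like level in the negative to 16.1% to 20.2% in the medium ATV-CD98hc libraries and from 10.1% to 12% to 23.8% to 29.9% with ATV-TfR.

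Other calls followed in the smaller classes. Atf5 in smooth muscle-like cells, the class with the most of it, was 146 and 217 CPM in the low and 350 and 397 in the negative ATV-TfR libraries (-1.16, 5.02% of genes called), and edgeR did not call it without ATV-TfR replicate 1 (-0.95, adjusted p = 0.534) or 2 (-1.34, 0.133). In the same comparison Phgdh was higher (2.10, edgeR adjusted p = 0.0228) and Atf3 lower (-3.13, 0.0471). Leaving out ATV-TfR replicate 1 ended both calls, and DESeq2 did not call Atf3. Astrocyte markers in these smooth muscle-like cells summed to 4765 and 5820 CPM in the low and 1503 and 1672 in the negative libraries. The part of astrocyte RNA, which holds less Atf5, was not tested. In border macrophage-like cells Phgdh was lower with ATV-CD98hc than with ATV-TfR in the medium bins (-5.42, 6.08% of genes called), or -4.34 (edgeR adjusted p = 0.0661) without ATV-CD98hc replicate 1. Astrocyte markers there were 2.08% and 1.17% of their astrocyte-like level with ATV-CD98hc and 12.3% and 25.3% with ATV-TfR. In microglia-like cells Trib3 had 2 and 6 UMIs in the low and 0 in the negative ATV-TfR libraries (11.3% of genes called). Psat1 there was 18 and 28.8 CPM in the low, 23.6 and 35 in the medium and 9.78 and 11 in the negative ATV-TfR libraries, and rose by 1.24 (edgeR adjusted p = 0.0118) and 1.54 (0.0463, 13.1% of genes called). Psat1 was called in neither bin within the largest microglia-like cluster, nor in the medium bin with doublets kept. It was not called without ATV-TfR replicate 1 (1.46, 0.147 and 1.73, 0.319) or 2 (0.93, 0.69 and 1.35, 0.408), and astrocyte markers were 14.5% and 19.5% of their astrocyte-like level in the low and 2.62% and 3.03% in the negative libraries.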

How the data were processed

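Droplet RNA counts of sorted mouse brain cells were analysed as deposited by the authors, in whole UMI counts that had not been normalized. The other files deposited by the authors list barcodes, genes and libraries. Per the submitters' processing notes, Cell Ranger 7.1.0 and the builds mm10 and GRCm38 were used, and the annotation release is not given in the sources used here. Cells with at least 500 genes, 800 UMIs and at most 10% mitochondrial UMIs were kept (249715 of 265025 barcodes). Scrublet removed 15689 doublets, in 8 libraries above percentile 94 of the score because its own threshold had failed. The 234026 kept cells were clustered (scanpy 1.11.5, 2000 variable genes, 50 components, 15 neighbours, Leiden resolution 1 with leidenalg 0.10.2) and named from marker lists, and 3888 cells stayed unnamed. UMIs were summed per class and library or pool with at least 20 cells and tested with edgeR 4.0.16 (R 4.3.3, TMM, filterByExpr, quasi-likelihood, all groups in a shared fit). Benjamini-Hochberg adjustment ran over all genes of a class at 0.05, and a call means an adjusted p below that. DESeq2 1.42.0 was an alternative. Differences are on the log2 scale, and scripts were tested on simulated counts.

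Pool numbers pair bins of a treatment, since bins of a pool share animals per the labels. Differences between the pools of a treatment correlated between bins by 0.142 to 0.964 in endothelial-like and -0.362 to 0.803 in astrocyte-like cells. With 2 pools a group, p-values of whole pools measure the spread between pools of 2 mice. For bins, each library was fitted as a separate sample without a pool term, and the 12 groups shared the estimate of the spread. Bins of a pool share animals, so these p-values count the same mice more than once. They do not measure the spread between pools alone. Intervals on single counts cover counting error alone. All 10 members are named, and of other lists the genes with the largest changes. Ddit3 has 2 rows, 1 of them with 0 UMIs and left out. The members and lists were chosen with earlier results of these data known.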

Additional observations from a re-analysis of the deposited data

Results flagged for a closer look

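In astrocyte-like cells the difference of high minus negative bins was not the same with both ATVs, by the test of that difference, for 2 of 9 members, where 7.53% of all genes were called. It was -1.32 on the log2 scale (ATV-CD98hc minus ATV-TfR) for Atf5 and -1.06 for Psat1. Within cluster 0, the largest, Atf5 was 0.27 and Psat1 -0.31, neither called. Leaving out ATV-CD98hc replicate 1, ATV-TfR replicate 1 or ATV-TfR replicate 2 ended the call of Atf5 (-0.96, -1.39 and -1.28). For Psat1, leaving out ATV-CD98hc replicate 1 or 2 or ATV-TfR replicate 1 did so (-1.09, -1.04 and -0.78).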

How the results depend on the processing

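Of 244 member results, 74 were called and 15 of these were called under every alternative that was run. Of 3261 alternative values, 3033 kept their side of the threshold, 190 of which changed sign while never called, 198 lost the call, 25 gained it and 5 reversed, and the cause was not tested. The reversed values were, within the largest cluster alone, 0.10 for Psat1 in astrocyte-like cells from negative to medium with ATV-CD98hc, -0.0802 for Atf5 from negative to high with ATV-TfR, 0.27 for Atf5 in the difference of high minus negative and 0.0573 for Psat1 between the medium bins, and, for Phgdh between the negative bins, -0.36 without ATV-CD98hc replicate 2, with 0.362 the highest value without a replicate.

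Counts of called members moved as follows in endothelial-like cells. The share of all genes called in each alternative run is not given, here or for the other classes. No result about the members is therefore read from these counts. From negative to high with ATV-TfR, DESeq2 gave 1 in place of 0. Between the high bins of the ATVs, no filter gave 1, the replicate block 1 and leaving out a replicate 0 to 3. In the low bins, ATV-CD98hc minus control IgG went from 2 to 0 with the stricter filter (a mean of at least 8 CPM, which drops Phgdh and Psat1), 1 in cluster 3 alone and 1 to 2 without a replicate, and ATV-TfR minus control IgG went from 1 to 0 with the stricter filter and 0 to 1 without a replicate. Between the medium bins, 1 became 0 with the stricter filter, 3 with the replicate block, 0 in the largest cluster and 0 to 2 without a replicate.

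In astrocyte-like cells, ATV-CD98hc low minus negative gave 1 with the replicate block and 0 to 1 without a replicate, the low bins gave 1 with doublets kept, and the negative bins 0 to 1 without a replicate. In the largest cluster the high bins, the medium bins and the difference of high minus negative each gave 0, and without a replicate they gave 1 to 2, 0 to 4 and 0 to 2. Over the other classes 39 calls became 18 to 37 without a replicate. The replicate block changed no other count by over 1.5 times. It could not be fitted for whole pools, where each pool is a single value. The highest class switched for Atf3, Atf4, Chac1 and Sesn2. Cluster 3 alone and medium in place of high were added after seeing the data. The largest cluster gave no value for endothelial-like contrasts with negative bins. The negative endothelial-like libraries of the ATVs held 50 to 85 cells, which limits contrasts with them.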
